A study of Mus musculus with 6 samples.

Results

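The chemokines described here were Ccl25, Ccl20, Ccl6, Ccl24, Ccl28, Ccl9, Cxcl16 and Cx3cl1, 8 of the 32285 genes in the count tables, taken by their gene symbols. Their raw unique molecular identifiers (UMIs, each standing for 1 captured RNA molecule) were summed per library over classes of epithelial and immune cells that were gated by marker genes, and none of the 8 genes was used to gate a cell. The named classes held 26018 of 60706 cell barcodes.

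Chemokines are small secreted or membrane-bound proteins that draw leukocytes along gradients through G protein-coupled receptors. In the small intestine, epithelial cells are a major source of them. Ccl25 is known for guiding Ccr9-bearing T cells to the small intestine, Ccl20 for its receptor Ccr6 and its place in the epithelium over lymphoid follicles, and Cxcl16 and Cx3cl1 for being made as membrane proteins whose outer part can be shed.

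Cells came from the small intestinal epithelium of C57BL/6 mice, brought into suspension with EDTA and trypsin, and were sequenced on a droplet platform as 6 libraries. Of these, 3 were labelled littermate (HuR fl/fl mice without Cre) and 3 were labelled as intestinal epithelium HuR knockout (IE-HuR-/-), in which villin-Cre, active in the intestinal epithelium, deletes the floxed Elavl1 gene. The methods give mice of 6 to 8 wk, matched for age and gender, and state that villus-rich and crypt-rich fractions were combined. Deletion is not aimed at immune cells in this model. The comparison asked whether chemokine RNAs differed between the labels in each cell class.

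Elavl1, which encodes the RNA-binding protein HuR, had 28.1, 30.2 and 27.8 CPM (UMIs of a gene per 1000000 UMIs of the summed class) in enterocytes of littermate replicates 1 to 3 and 28.7, 29.4 and 30.4 CPM in those labelled IE-HuR-/-. These unscaled levels overlapped between the groups. With TMM scaling between libraries, the log2 fold change was 0.21 (SE 0.0502, edgeR quasi-likelihood test, Benjamini-Hochberg adjusted p = 0.000372). Without that scaling the median of all RNAs in enterocytes moved from -0.03 to -0.20, and the call of Elavl1 was not checked without it. UMIs are counted per gene, so RNA from an allele that lacks a part of the gene would be counted too and the level checks nothing about the deletion. Because Elavl1 RNA was not lower, each direction given below rests on the labels of the libraries.

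The libraries held 59518012 to 91818560 UMIs. The gates gave 18000 enterocytes, 956 goblet cells, 241 enteroendocrine cells, 171 tuft cells, 125 crypt progenitors, 4 Paneth cells, 6026 T/NK cells, 198 myeloid cells, 173 B/plasma cells and 124 plasmacytoid dendritic cells (pDC), and 32861 barcodes that passed neither the epithelial nor the immune gate were left without a class. A further 993 epithelial and 559 immune barcodes got no subclass, and 275 had fewer than 200 genes. The deposited cells of the epithelium thus included immune cells, and Paneth cells were too few for any comparison. Pairs of libraries shared 22 to 44 barcodes, 0.250% to 0.443% of the smaller library. RNAs used as enterocyte markers were also counted outside enterocytes. Over the 11 marker RNAs, the median level in T/NK cells was 6.34% to 14.9% of that in enterocytes across the 6 libraries. This median was 3.57% to 13.7% in crypt progenitors, 4.40% to 11.3% in myeloid cells and 39.5% to 68.4% in tuft cells. In goblet cells it was 57.1% to 57.6% in littermates and 34.2% to 47.6% in the libraries labelled IE-HuR-/-, without overlap. Summed levels of these 11 RNAs in goblet cells were 31164 to 31748 CPM and 20759 to 29056 CPM, and in enterocytes they were 53887 to 57442 CPM and 60629 to 63488 CPM. Levels of chemokines in these classes are given beside those shares, and the part that free RNA took in them was not tested. Summed levels of 7 immune marker RNAs in enterocytes were 23.5 to 31.0 CPM in littermates and 18.8 to 20.7 CPM in libraries labelled IE-HuR-/-.

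Enterocytes held most of the UMIs of 6 of the 8 chemokines, and also 286266009 of the 428980031 UMIs of all RNAs in all barcodes. They held 81.4% of all 102995 Ccl25 UMIs, 80.1% of Cx3cl1, 79.3% of Ccl24, 77.7% of Ccl20, 76.3% of Cxcl16 and 62.7% of Ccl28. The share of Ccl28 was below that of all RNAs. Ccl6 and Ccl9 were different. Goblet cells held 76.8% of 24439 Ccl6 UMIs and enterocytes 2.95%, whereas the 816 Ccl9 UMIs lay mostly in barcodes without a class (30.3%), in myeloid cells (29.9%) and in goblet cells (21.3%).

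**Figure D1:**
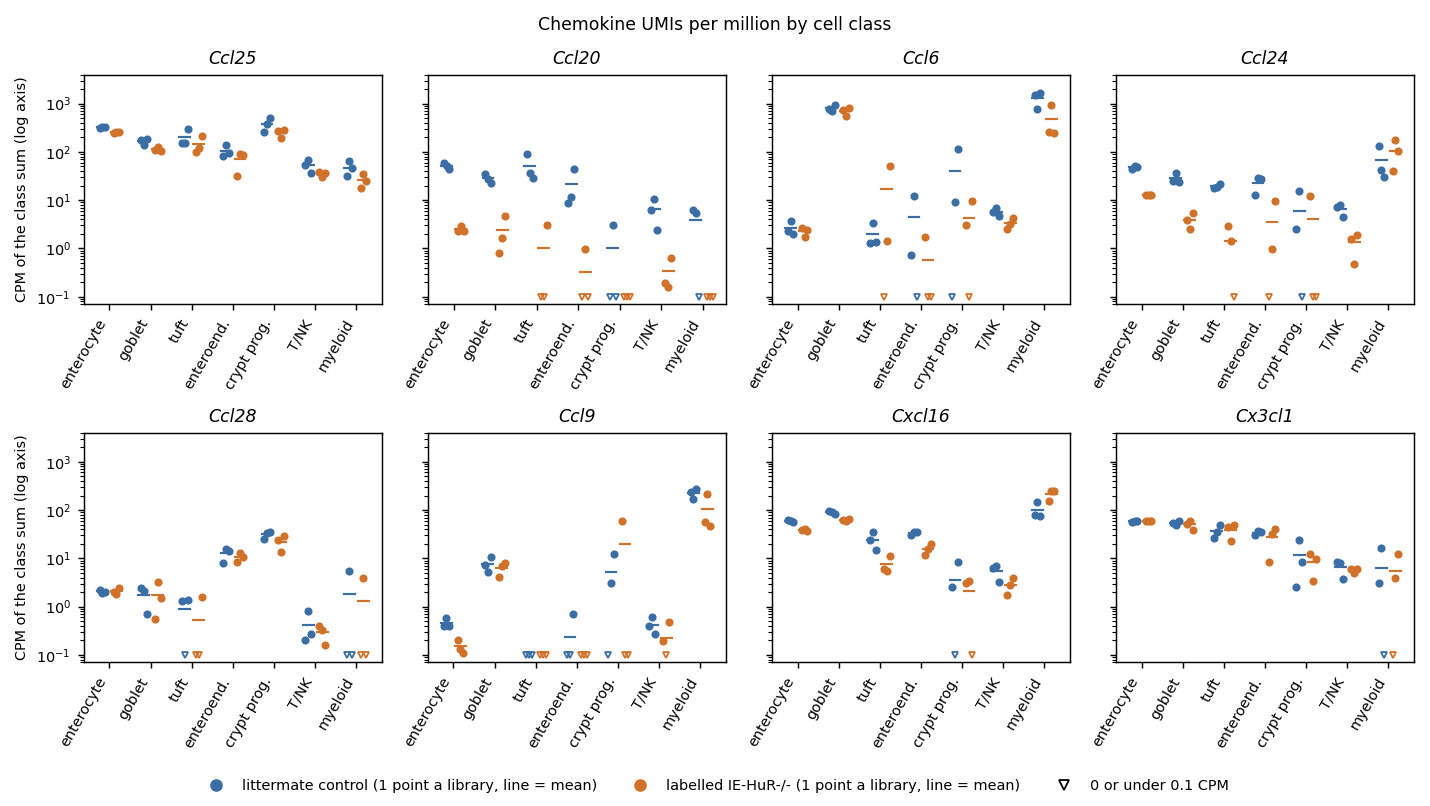
Level of each chemokine (CPM on a log axis) in enterocyte, goblet, tuft, enteroendocrine, crypt progenitor, T/NK and myeloid cells. Each point is a library, coloured by label, and open triangles mark levels of 0 or under 0.1 CPM. Ccl25, Ccl20, Ccl24, Cxcl16 and Cx3cl1 lay at least as high in enterocytes as in most other classes, Ccl6 stood at 563 to 928 CPM in goblet cells and 1.75 to 3.67 CPM in enterocytes, and Ccl28 was higher in crypt progenitors than in enterocytes.

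In enterocytes, 6 of the 8 chemokines passed the test between the labels, of which 5 were lower and Cx3cl1 was higher in the libraries labelled IE-HuR-/-. Of all 12390 RNAs tested there, 60.8% passed (32.2% lower and 28.6% higher), so a share of this size was close to the background. The sizes were not alike. Ccl20 ranked 11th from the largest fall among the RNAs tested, Ccl24 ranked 152nd and Ccl9 247th, whereas Cxcl16 ranked 2240th and Ccl25 4348th. The place of Ccl9 rested on 94 UMIs, and it met the count filter through the littermate libraries. After thinning, its share of enterocytes was at or below the T/NK background, as given below. The median log2 fold change of the 8 was -0.33, beside -0.03 for all RNAs. Without TMM scaling the median of all RNAs moved to -0.20 and the split of calls from 3540 higher and 3991 lower to 1890 higher and 6215 lower, and then 5 chemokines were lower and Cx3cl1 no longer passed.

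**Figure D2:**
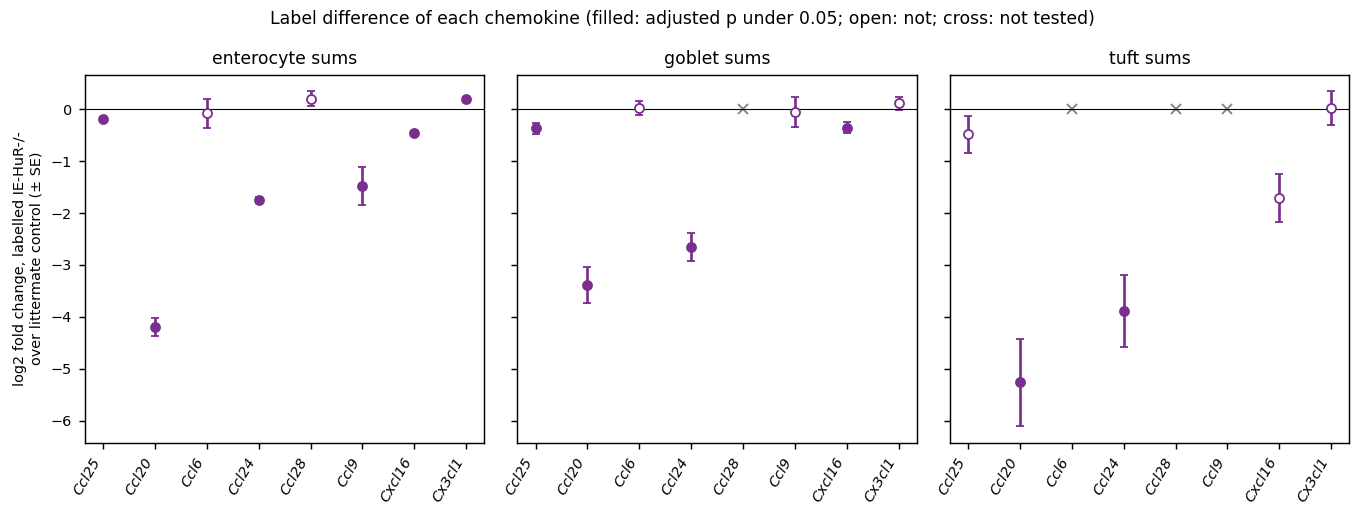
Log2 fold change of each chemokine, libraries labelled IE-HuR-/- against littermates, in enterocytes, goblet cells and tuft cells (edgeR quasi-likelihood fit). Bars show the SE, filled points passed an adjusted p of 0.05, open points did not, and crosses mark chemokines that were not tested. Ccl20 and Ccl24 lay furthest below 0 in enterocytes, at -4.20 and -1.75, and also in goblet and tuft cells, whereas Ccl6 lay near 0 in enterocytes and goblet cells.

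Ccl20, the ligand of Ccr6, was far lower in the epithelium of the libraries labelled IE-HuR-/-. In enterocytes it stood at 60.3, 50.1 and 45.2 CPM in littermate replicates 1 to 3 and at 2.30, 2.89 and 2.33 CPM in the libraries labelled IE-HuR-/-. Every littermate library lay far above every other library. The log2 fold change was -4.20 (SE 0.174, edgeR adjusted p = 1.04e-05) and lay between -4.37 and -4.07 under the 13 alternatives tried, all past the threshold. In goblet cells Ccl20 was 34.6, 27.9 and 23.2 CPM against 0.823, 1.61 and 4.78 CPM, without overlap (log2 fold change -3.39, SE 0.344, edgeR adjusted p = 8.74e-06), although 13 of the 24 UMIs on the IE-HuR-/- side came from 1 cell. Goblet cells had a lower Ccl20 level than enterocytes of the same libraries by 0.63 on the log2 scale (edgeR adjusted p = 0.00617), and per library it was 35.8% to 205% of the enterocyte level there, beside the marker median of 34.2% to 57.6%.

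A minority of enterocytes carried most of their Ccl20, since the richest 10% held 92.2% to 93.4% of its UMIs in the littermate libraries. In littermates, 15.9% of 9905 enterocytes had a Ccl20 UMI, against 2.15% of 8095 in the libraries labelled IE-HuR-/-. The median depths were 9994 and 8964 UMIs per cell. In T/NK cells, which served as the background, the shares were 3.10% and 0.151% at median depths of 4834 and 4862 UMIs. After each cell was thinned to 2000 UMIs, which left out 391 and 609 shallower enterocytes, the enterocyte shares were 5.57% and 0.521% and those of T/NK cells 1.28% and 0.0617%. The 1% of enterocytes richest in Ccl20 held 40.6% to 43.8% of its UMIs in each littermate library, and the richest cell held 126 UMIs. Cells with at least 5 Ccl20 UMIs numbered 164, 174 and 91 in littermates (4.005% to 4.90% of enterocytes) and 1, 5 and 3 in the others (0.0380% to 0.182%).

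Outside enterocytes and goblet cells the Ccl20 counts were small. Tuft cells had 122 UMIs in littermates, 52 of them in 1 cell, and 2 UMIs in the libraries labelled IE-HuR-/-, a ratio of 43.3 (95% interval for counting error 11.7 to 361). That difference passed the test (log2 fold change -5.26, edgeR adjusted p = 0.0288), but not without any 1 of the IE-HuR-/- replicates 1, 2 and 3 (adjusted p = 0.110, 0.116 and 0.0641). Per library, the tuft level was 0% to 147% of the enterocyte level, beside the tuft marker median of 39.5% to 68.4%. Enteroendocrine cells had 88 UMIs against 1, and the 125 crypt progenitors had 1 in all. In T/NK cells Ccl20 was 6.18, 10.8 and 2.39 CPM against 0.198, 0.162 and 0.645 CPM and fell by 4.22 on the log2 scale (edgeR adjusted p = 0.0157). Its level there was 5.27% to 27.7% of that in enterocytes of the same library, and the call was lost without littermate replicate 1 (adjusted p = 0.0721) or without IE-HuR-/- replicate 1, 2 or 3 (0.115, 0.101 and 0.0576).

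The Ccl20 gene lies on mouse chromosome 1 (GRCm38, 83116766 to 83119167, plus strand). HuR is known to bind AU-rich stretches in the 3′ untranslated regions of RNAs, of which the pentamer ATTTA is the classical core, so the annotated 3′ ends (GENCODE) of the chemokines were searched for it on the gene strand. The 1050 bases of Ccl20 held 9 ATTTA, 5 of them within the last 300 bases. Of 16256 genes with a 3′ untranslated region of at least 300 bases, 0.535% had as many there and 45.4% had any. The count was 0 in 858 bases of Ccl24, 0 in 505 of Ccl25, 1 in 1871 of Cx3cl1, 2 in 1421 of Cxcl16, 4 in 943 of Ccl6, 5 in 2465 of Ccl9 and 5 in 3293 of Ccl28. Stretches of 30 bases with ATTTA in capitals are shown for Ccl20, which of the 8 chemokines had the largest fall in enterocytes, and for Ccl6, Cxcl16 and Cx3cl1 beside it.
Ccl20, chr1:83119060-83119089, plus strand: agatATTTAatgttctgtttATTTAattgc
Ccl6, chr11:83588723-83588752, minus strand: ttatagatATTTAaagcATTTAtccttctg
Cxcl16, chr11:70455102-70455131, minus strand: agctaagatgttATTTAgtccaagccagcc
Cx3cl1, chr8:94780850-94780879, plus strand: cagtgaacaattATTTAttggattcccagc
A match describes the letters and no binding.

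Ccl24 (eotaxin-2), a ligand of Ccr3 on eosinophils, was lower in the libraries labelled IE-HuR-/- as well. It stood at 44.9, 50.9 and 49.7 CPM in enterocytes of littermate replicates 1 to 3 and at 13.1, 12.9 and 12.6 CPM in the others, without overlap. The log2 fold change was -1.75 (SE 0.0556, edgeR adjusted p = 2.12e-32). The share of enterocytes with a Ccl24 UMI was 27.1% in littermates and 10.45% in the libraries labelled IE-HuR-/- (7.50% and 2.58% after thinning), against 2.95% and 0.634% of T/NK cells (1.58% and 0.370%). Unlike Ccl20, Ccl24 was spread over more cells, since the richest 1% of littermate enterocytes held 16.1% to 17.4% of its UMIs and the richest cell held 23.

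Goblet cells had 25.4, 36.3 and 23.5 CPM of Ccl24 against 3.84, 2.58 and 5.38 CPM, and no littermate library overlapped with the others (log2 fold change -2.65, SE 0.266, edgeR adjusted p = 1.03e-06). Its level there was 19.9% to 71.3% of that in enterocytes. In tuft cells it was 18.2, 19.0 and 22.1 CPM against 2.95, 1.40 and 0 CPM, or 47 UMIs against 2 (ratio 16.7, 95% interval 4.37 to 142, edgeR adjusted p = 0.0151), and this call was lost with DESeq2 (adjusted p = 0.0547) and without littermate replicate 2 (0.0758) or IE-HuR-/- replicate 2 (0.0762). Tuft levels were 40.6%, 37.4% and 44.6% of those in enterocytes in littermates, below the enterocyte marker medians of 45.4%, 49.6% and 68.4% there. In the libraries labelled IE-HuR-/- they were 22.5%, 10.8% and 0%, beside 46.1%, 39.5% and 56.5%. In T/NK cells Ccl24 fell by 2.34 on the log2 scale (edgeR adjusted p = 0.00145). Its level there was 9.08% to 16.0% of that in enterocytes in littermates and 3.76% to 15.4% in the libraries labelled IE-HuR-/-. Myeloid cells did not show the fall, with 131, 42.9 and 30.3 CPM against 40.1, 173 and 105 CPM (log2 fold change 0.57, edgeR adjusted p = 0.932), and the groups overlapped. The myeloid level of Ccl24 did not pass against that of enterocytes (log2 fold change 0.74, edgeR adjusted p = 0.364).

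In goblet cells, 4 of 7 chemokines tested (Ccl20, Ccl24, Ccl25 and Cxcl16) were lower in the libraries labelled IE-HuR-/-, where 26.3% of all RNAs passed and 11.7% were lower. The enterocyte marker RNAs in goblet cells were lower on that side too (31164 to 31748 CPM against 20759 to 29056 CPM, without overlap), and their part in these 4 differences was not tested. The median of the 7 was -0.35, and that of all RNAs -0.01. Without TMM scaling the calls over all RNAs split into 705 higher and 2190 lower in place of 1313 and 1045. Tuft cells gave 2 of 5 tested, where 0.580% of all RNAs passed and 0.446% were lower, and T/NK cells 2 of 6, where 4.84% passed and 2.12% were lower. In both classes these were Ccl20 and Ccl24, which met the count filter there through the littermate libraries, in which they were high. The counts for tuft and T/NK cells are therefore descriptions and no support for a difference of the chemokines as a group. Over all epithelial cells 5 of 8 passed, where 51.6% of RNAs did (3318 higher and 3773 lower, or 1842 and 5932 without TMM scaling). Whether the label difference differed between goblet cells and enterocytes was tested by an interaction term with edgeR. The term passed for 0 of 8 chemokines and for 3.65% of all RNAs, 291 higher and 165 lower or 238 and 206 without TMM scaling. For Ccl9 the difference was 1.45 (edgeR adjusted p = 0.145). For Ccl24 the difference was -0.89 (SE 0.271, edgeR adjusted p = 0.0698), which passed without TMM scaling (0.0420), with the stricter gate (0.0385) and without littermate replicate 3 (0.0246) or IE-HuR-/- replicate 3 (0.0439).

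Ccl25, the ligand of Ccr9, fell less. In enterocytes it stood at 319, 328 and 329 CPM in littermate replicates 1 to 3 and at 245, 256 and 257 CPM in the libraries labelled IE-HuR-/-. The groups did not overlap, and the log2 fold change was -0.19 (SE 0.0420, edgeR adjusted p = 8.58e-05), or -0.36 without TMM scaling. Goblet cells had 177, 141 and 182 CPM against 111, 126 and 102 CPM, again without overlap, beside enterocyte marker levels in goblet cells that also did not overlap between the labels (log2 fold change -0.36, SE 0.105, edgeR adjusted p = 0.0131). That call was lost without littermate replicate 1 (0.0702), littermate replicate 3 (0.0593) or IE-HuR-/- replicate 1 (0.0558).

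By cell class, Ccl25 was 331 CPM in crypt progenitors (pooled over the 6 libraries, exact Poisson 95% interval 306 to 357), 293 CPM in enterocytes (291 to 295), 180 CPM in tuft cells (168 to 194), 144 CPM in goblet cells (139.5 to 149.0), 93.2 CPM in enteroendocrine cells (85.9 to 100.9) and 43.3 CPM in T/NK cells (41.0 to 45.7). These intervals cover counting error only. The fit put crypt progenitors below enterocytes by 0.87 on the log2 scale (edgeR adjusted p = 4.82e-08), but above them by 0.08 without TMM scaling (adjusted p = 0.597), so the order of these neighbours depended on the scaling. Ccl25 in goblet cells was 39.7% to 55.6% of the enterocyte level, beside that marker median of 34.2% to 57.6%, and in T/NK cells 11.4% to 20.7%. In tuft cells it was 40.9% to 91.7%, beside 39.5% to 68.4%. In crypt progenitors enterocyte marker RNAs reached a median of 3.57% to 13.7%, whereas Ccl25 was at 74.1% to 152%. Crypt progenitors had 264, 383 and 500 CPM of Ccl25 against 273, 190 and 284 CPM, with overlap, and 0 of 1 chemokine tested there passed (log2 fold change -0.69, unadjusted p = 0.0047, edgeR adjusted p = 0.411), where 0.314% of all RNAs did.

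Ccl28, a ligand of Ccr10 and Ccr3 known from mucosal epithelia, was highest in crypt progenitors. Crypt progenitors had 25.4, 33.4 and 35.7 CPM in littermate replicates 1 to 3 and 24.3, 13.3 and 28.9 CPM in the libraries labelled IE-HuR-/-, whereas enterocytes had 1.92 to 2.26 and 1.86 to 2.47 CPM. Each crypt progenitor sum lay above every enterocyte sum, and the groups of labels overlapped in both classes. Crypt progenitors exceeded enterocytes by 2.75 on the log2 scale (SE 0.313, edgeR adjusted p = 1.60e-13, from 56 UMIs) and enteroendocrine cells did by 1.80 (SE 0.251, edgeR adjusted p = 6.36e-07, from 78 UMIs), also without TMM scaling (3.69 and 2.49). Tuft cells had 3 Ccl28 UMIs, and goblet cells did not pass against enterocytes (log2 fold change -0.09, edgeR adjusted p = 0.816). In enterocytes the label difference of Ccl28 was 0.20 (SE 0.145, edgeR adjusted p = 0.232).

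Against enterocytes of the same libraries, 7 of 8 chemokines passed in crypt progenitors (Ccl28 and Ccl9 higher, the other 5 lower), where 69.5% of all RNAs passed, and 6 of 8 did in enteroendocrine cells (Ccl28 higher, 5 lower), where 69.5% also passed. In tuft cells 6 of 7 were lower, beside 57.1% of RNAs that passed and 30.6% that were lower, in goblet cells 6 of 8 passed (Ccl6, Ccl9 and Cxcl16 higher, Ccl25, Ccl24 and Ccl20 lower), beside 50.2%, in T/NK cells 6 of 8 were lower, beside 88.5% that passed and 43.0% that were lower, and in myeloid cells 5 of 8 passed (Ccl9 and Ccl6 higher, Ccl25, Ccl20 and Cx3cl1 lower), beside 66.7%. Scaling moved these class comparisons over all RNAs. Without TMM scaling the calls went from 3073 higher and 3197 lower to 2350 and 4621 in goblet cells, from 3430 and 3957 to 5444 and 2015 in tuft cells, and from 5055 and 4799 to 7869 and 2361 in enteroendocrine cells. They went from 3825 and 4949 to 5843 and 2806 in crypt progenitors, from 6546 and 6193 to 9078 and 4016 in T/NK cells, and from 3841 and 4922 to 6042 and 2748 in myeloid cells. Over every RNA tested, the median difference from enterocytes then lay between -0.19 in goblet cells and 1.12 in T/NK cells on the log2 scale. For tuft cells the calls of Ccl20 and Ccl28 were lost without TMM scaling (adjusted p = 0.565 and 0.0854), and that of Ccl20 also without littermate replicate 2 (0.105) or 3 (0.0897).

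Ccl6, a mouse CC chemokine and ligand of Ccr1, was an RNA of goblet cells and myeloid cells. Goblet cells had 774, 694 and 928 CPM in littermate replicates 1 to 3 and 728, 563 and 826 CPM in the libraries labelled IE-HuR-/-. The groups overlapped, and no label difference was detected (log2 fold change 0.02, SE 0.138, edgeR adjusted p = 0.928). Enterocytes had 2.30, 3.67 and 1.96 CPM against 2.61, 1.75 and 2.47 CPM, also with overlap. Goblet cells exceeded enterocytes by 8.41 on the log2 scale (SE 0.153, edgeR adjusted p = 2.45e-12), with 8.25 to 8.97 under the 9 alternatives.

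Ccl6 was found in most goblet cells. Of 557 goblet cells in littermates 91.4% had a UMI, and of 399 in the others 87.2%, at median depths of 21299 and 23063 UMIs. Enterocytes had it in 3.69% and 3.05% and T/NK cells, the background, in 2.69% and 1.72%. After thinning the goblet shares were 61.7% and 59.8%, with 8 and 31 shallower cells left out. The enterocyte shares fell to 0.893% and 0.508% and those of T/NK cells were 1.40% and 0.616%, so Ccl6 in enterocytes was at the background. In tuft cells 31 of the 33 Ccl6 UMIs of the libraries labelled IE-HuR-/- lay in 1 cell, and in crypt progenitors 53 of the 57 of littermates did.

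Myeloid cells had 1539, 757 and 1695 CPM of Ccl6 in littermates and 254, 949 and 247 CPM in the libraries labelled IE-HuR-/-. IE-HuR-/- replicate 2 lay above littermate replicate 2, so the groups overlapped, and the difference did not pass (log2 fold change -1.41, SE 0.616, edgeR adjusted p = 0.725). Without IE-HuR-/- replicate 2 it was -2.37 (adjusted p = 0.0160). These sums rest on 22 to 42 myeloid cells per library, and 1 cell of that replicate held 137 of the 363 Ccl6 UMIs of its label. On the littermate side, 1 cell of replicate 3 held 244 of 969. In myeloid cells 0 of 4 chemokines tested passed with edgeR, where 0.290% of all RNAs did (9 higher and 1 lower, or 11 and 3 without TMM scaling). The smallest unadjusted p of the 4 was that of Cxcl16 (edgeR, 0.00542).

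Ccl9, which lies near Ccl6 on chromosome 11 and is also a ligand of Ccr1, was likewise higher in myeloid and goblet cells than in enterocytes, at fewer UMIs. Unlike Ccl6, it was lower in goblet than in myeloid cells in every library. A Ccl9 UMI was found in 116 goblet cells, and a Ccl6 UMI in 857. Myeloid cells had 238, 172 and 278 CPM in littermates and 57.9, 219 and 46.1 CPM in the libraries labelled IE-HuR-/-, with overlap through replicate 2 of the latter (log2 fold change -1.04, edgeR adjusted p = 0.776; -2.10 and 0.0175 without it). Of these UMIs, 1 cell of littermate replicate 3 held 35 of 163, and 1 cell of IE-HuR-/- replicate 2 held 32 of 81. Goblet cells had 7.14, 5.19 and 10.8 CPM against 4.12, 7.10 and 8.06 CPM, with overlap (log2 fold change -0.05, edgeR adjusted p = 0.919). Against enterocytes, Ccl9 was higher in goblet cells by 4.63 (edgeR adjusted p = 7.57e-09) and in myeloid cells by 8.07 (edgeR adjusted p = 1.02e-54) on the log2 scale, and Ccl6 in myeloid cells by 7.25 (edgeR adjusted p = 0.000239).

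In enterocytes Ccl9 had 75 UMIs in littermates and 19 in the others, or 0.405, 0.595 and 0.392 CPM against 0.206, 0.134 and 0.112 CPM. The groups did not overlap, and Ccl9 fell by 1.48 on the log2 scale (SE 0.372, edgeR adjusted p = 0.000591). Of the 75 littermate UMIs, 15 lay in 1 cell of replicate 2. Of enterocytes, 0.586% and 0.222% had a UMI, against 0.221% and 0.0906% of T/NK cells, and after thinning the shares were 0.0946% and 0.0534% against 0.151% and 0.0617%, at or below the background. The rise of Ccl9 in crypt progenitors (log2 fold change 3.97, edgeR adjusted p = 0.00396) rested on 27 UMIs, 19 of them in 1 cell of IE-HuR-/- replicate 1, and was 2.49 without that library (adjusted p = 0.00548).

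Ccl6 and Ccl9 lie close together on chromosome 11 (GRCm38, 83587882 to 83593087 and 83572919 to 83578636, both on the minus strand). Since both were higher in goblet and myeloid cells, the 250 bases before their annotated starts are shown (RefSeq, GRCm38.p6), with that of Ccl20, which had the largest fall of the 8 chemokines in enterocytes. Capitals mark matches to 5 motifs. The core promoter motif TATAAA was searched on the gene strand and was held by 7.59% of 32851 promoters of the same length. The Cdx motif CATAAA was searched on both strands, as were the next ones, and was held by 10.8%. The AP-1 motif TGANTCA was held by 6.75%, the Gata motif AGATAA by 9.99%, and the NF-kappaB motif GGAANNNCC by 15.7%.
Ccl6, chr11:83593088-83593337, minus strand: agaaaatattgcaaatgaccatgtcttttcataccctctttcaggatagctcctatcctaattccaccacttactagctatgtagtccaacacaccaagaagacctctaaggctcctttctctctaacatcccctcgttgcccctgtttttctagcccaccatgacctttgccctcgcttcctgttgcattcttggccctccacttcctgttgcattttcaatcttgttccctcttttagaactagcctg
Ccl9, chr11:83578637-83578886, minus strand: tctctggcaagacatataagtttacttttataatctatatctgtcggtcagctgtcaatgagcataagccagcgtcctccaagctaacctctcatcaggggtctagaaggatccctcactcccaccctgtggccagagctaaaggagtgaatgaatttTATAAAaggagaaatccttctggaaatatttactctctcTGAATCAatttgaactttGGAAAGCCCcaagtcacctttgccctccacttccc
Ccl20, chr1:83116516-83116765, plus strand: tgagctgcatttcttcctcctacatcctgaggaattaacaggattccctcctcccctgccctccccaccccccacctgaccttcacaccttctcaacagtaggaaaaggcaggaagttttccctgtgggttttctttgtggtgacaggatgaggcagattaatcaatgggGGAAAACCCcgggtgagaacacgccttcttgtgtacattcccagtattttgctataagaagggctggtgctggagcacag
The Ccl9 window held the core promoter motif at 92, the AP-1 motif at 53 and the NF-kappaB motif at 35 bases before the start, the Ccl20 window held the NF-kappaB motif at 80, and the Ccl6 window held none of the 5. Ccl24 and Cxcl16 had no promoter entry in the reference used and were not searched. Of the windows not shown, that of Cx3cl1, which did not fall in enterocytes, held the NF-kappaB motif at 71 and the core promoter motif at 6, and that of Ccl28 held none of the 5. A window of Ccl25 held the core promoter motif at 16 and the Cdx motif at 192. A match is a description of these letters and not a site in use.

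Cxcl16, the membrane-bound ligand of Cxcr6, was lower in the libraries labelled IE-HuR-/- in enterocytes and goblet cells. In enterocytes it stood at 61.3, 59.7 and 57.9 CPM in littermate replicates 1 to 3 and at 37.8, 40.6 and 37.1 CPM in the others, without overlap (log2 fold change -0.46, SE 0.0470, edgeR adjusted p = 2.51e-12). Goblet cells had 96.4, 91.9 and 84.9 CPM against 63.4, 59.3 and 64.5 CPM, also without overlap (log2 fold change -0.35, SE 0.104, edgeR adjusted p = 0.0144). The goblet call was lost with DESeq2 (adjusted p = 0.0561) and without littermate replicate 1 (0.0680) or 2 (0.0682).

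Goblet cells had more Cxcl16 than enterocytes, by 0.81 on the log2 scale (SE 0.0618, edgeR adjusted p = 6.04e-09), and its level there was 146% to 174% of that in enterocytes in every library. Tuft cells had 23.4, 34.7 and 15.2 CPM against 5.90, 5.60 and 10.97 CPM, which did not overlap but did not pass (log2 fold change -1.71, edgeR adjusted p = 0.124; 0.0190 without the count filter and 0.0303 without littermate replicate 3). These were 13.8% to 58.1% of the enterocyte level, beside the tuft marker median of 39.5% to 68.4%. Crypt progenitors held 7 Cxcl16 UMIs. Myeloid cells ran the other way, with 78.2, 150 and 75.7 CPM in littermates and 156, 246 and 252 CPM in the libraries labelled IE-HuR-/-. The groups did not overlap, but the difference did not pass (log2 fold change 1.14, SE 0.341, edgeR adjusted p = 0.376; 0.0278 without the count filter). Of the 159 Cxcl16 UMIs on the IE-HuR-/- side, 31 lay in 1 cell of replicate 3. Against enterocytes, Cxcl16 in myeloid cells was at 0.66 on the log2 scale (edgeR adjusted p = 0.0693) and passed in 7 of 9 alternatives.

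Cx3cl1 (fractalkine), the membrane-bound ligand of Cx3cr1, differed little. In enterocytes it stood at 56.6, 58.2 and 60.2 CPM in littermates and at 60.6, 58.3 and 58.9 CPM in the libraries labelled IE-HuR-/-. The unscaled levels overlapped. With TMM scaling Cx3cl1 was higher by 0.19 on the log2 scale (SE 0.0455, edgeR adjusted p = 0.000253), and without it by 0.02 (adjusted p = 0.645), so this call rested on the scaling. Goblet cells had 48.1 to 58.5 CPM against 39.4 to 59.99 CPM, with overlap (log2 fold change 0.12, edgeR adjusted p = 0.522). Cx3cl1 did not pass between goblet cells and enterocytes (log2 fold change -0.03, edgeR adjusted p = 0.773), but it was lower in goblet cells without TMM scaling (-0.18, adjusted p = 0.0465) and with the stricter gate (-0.21, adjusted p = 0.0432). It was lower than in enterocytes by 1.59 in enteroendocrine and 3.53 in crypt progenitor cells, both with an edgeR adjusted p of at most 4.07e-06.

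Enterocytes change from the base to the tip of the villus, and they were therefore split by the share of their UMIs in 5 RNAs known from the villus tip (Ada, Nt5e, Slc28a2, Apoa4 and Klf4) into a low tier (under 0.5%), a middle tier and a tip tier (at least 2%). The tip tier held 24.7% to 27.7% of enterocytes in littermates and 21.0% to 24.3% in the libraries labelled IE-HuR-/-, and the summed level of the 5 RNAs over all enterocytes was 18729 to 21171 CPM and 17262 to 18536 CPM. Median depth also rose with the tier, from 5657 to 6242 UMIs per cell in the low tier to 15845 to 23813 in the tip tier. The part of these differences in the values below was not tested.

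Chemokines differed along these tiers. Of 7 tested, 6 passed between the tip and the low tier, where 71.0% of all RNAs did. Ccl24 was higher in the tip tier by 2.66 (edgeR adjusted p = 1.42e-09), Cxcl16 by 1.69 (1.49e-05) and Cx3cl1 by 0.36 (0.00271) on the log2 scale. Ccl25 was lower by 1.73 (2.40e-06), Ccl28 by 2.21 (3.17e-05) and Ccl6 by 0.77 (0.0132). Ccl20 did not pass in this fit, which took both labels together (log2 fold change 0.80, edgeR adjusted p = 0.105). Its level in littermates was higher in the tip than in the low tier, and highest in the middle tier. On the IE-HuR-/- side, Ccl20 was lower in the tip than in the low tier.

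**Figure D3:**
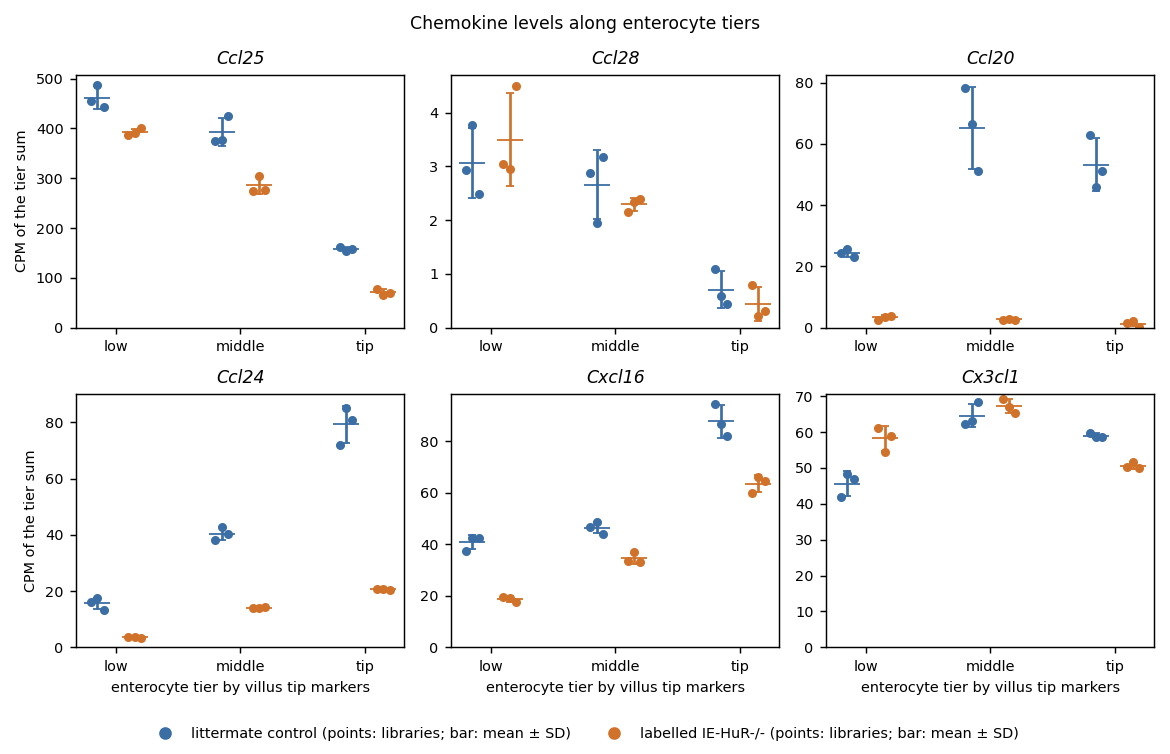
Level (CPM on a linear axis) of Ccl25, Ccl28, Ccl20, Ccl24, Cxcl16 and Cx3cl1 in the low, middle and tip tier of enterocytes. Each point is a library, coloured by label, and bars show the mean and SD over the libraries of a label. Ccl25 went down and Ccl24 and Cxcl16 went up from the low to the tip tier under both labels, and Ccl20 of the libraries labelled IE-HuR-/- stayed at 0.314 to 3.93 CPM in every tier.

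In the low, middle and tip tier, 4 of 7, 5 of 7 and 4 of 6 chemokines tested passed between the labels, where 43.8%, 55.4% and 61.8% of all RNAs did. For Ccl25 the difference grew towards the tip. The low tier had 455, 487 and 443 CPM of Ccl25 in littermates and 387, 390 and 400 CPM in the libraries labelled IE-HuR-/-, and the tip tier had 161, 154 and 158 CPM against 77.9, 65.4 and 70.1 CPM. Neither tier had overlap. The log2 fold change was -0.08 (SE 0.0576, edgeR adjusted p = 0.282) in the low, -0.29 (SE 0.0539, 4.45e-05) in the middle and -0.87 (SE 0.0520, 4.90e-16) in the tip tier, and the interaction of label and tier was -0.74 (SE 0.0593, edgeR adjusted p = 7.06e-14).

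For Cxcl16 the difference went the opposite way along the villus. It was 37.6, 42.5 and 42.4 CPM against 19.5, 19.1 and 17.6 CPM in the low tier and 94.4, 86.6 and 82.1 CPM against 59.8, 66.1 and 64.7 CPM in the tip tier, without overlap in either. The log2 fold change was -0.97 (SE 0.0838, edgeR adjusted p = 5.81e-15) in the low, -0.26 (0.000649) in the middle and -0.19 (SE 0.0558, 0.00407) in the tip tier. The interaction was 0.84 (SE 0.104, edgeR adjusted p = 4.87e-07).

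Ccl20 was 23.2 to 25.6 CPM in the low tier of littermates, 51.3 to 78.2 CPM in the middle and 45.9 to 62.8 CPM in the tip tier, against 2.63 to 3.93, 2.50 to 2.99 and 0.314 to 2.14 CPM, so it fell in each tier without overlap (log2 fold changes -2.69, -4.43 and -5.00, edgeR adjusted p of at most 0.000332). Ccl24 was 13.4 to 17.5, 38.1 to 42.7 and 72.1 to 85.1 CPM against 3.44 to 3.81, 13.9 to 14.3 and 20.3 to 20.9 CPM. It fell in each tier as well (log2 fold changes -1.97, -1.35 and -1.66, edgeR adjusted p of at most 2.53e-16). Cx3cl1 was higher in the low tier (41.8, 48.3 and 46.9 CPM against 61.2, 54.5 and 58.9 CPM, log2 fold change 0.51, edgeR adjusted p = 2.87e-08). In the tip tier it was lower in unscaled CPM (59.7, 58.5 and 58.8 against 50.2, 51.7 and 50.1 CPM, without overlap) but did not pass with TMM scaling (log2 fold change 0.06, edgeR adjusted p = 0.375). The interaction of label and tier passed for 5 of the 7 chemokines, where 33.0% of all RNAs passed (2269 higher and 1475 lower, or 1121 and 2791 without TMM scaling).

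Of the receptors, Ccr9 and Cxcr6 were found in T/NK cells, Ccr1 and Cx3cr1 in myeloid cells and Ackr4 in tuft cells, whereas Ccr10 and Ccr3 were at or near 0 in T/NK and myeloid cells. Of 9 receptor genes, 4 of 5 tested passed as higher in T/NK cells than in enterocytes, where 88.5% of all RNAs passed and 45.5% were higher, and 4 of 4 did in myeloid cells, where 66.7% passed and 29.2% were higher. T/NK cells had Ccr9, the receptor of Ccl25, at 251, 196 and 243 CPM in littermates and 317, 277 and 299 CPM in the libraries labelled IE-HuR-/-. The groups did not overlap, and Ccr9 rose by 0.35 on the log2 scale (SE 0.0778, edgeR adjusted p = 0.0163). Cxcr6, the receptor of Cxcl16, was 136, 118 and 155 CPM against 138, 143 and 133 CPM, with overlap (log2 fold change 0.00, edgeR adjusted p = 0.997). Ccr6, the receptor of Ccl20, was at most 0.796 CPM in T/NK cells of any library, and 11.1 to 42.5 CPM in B/plasma cells of littermates against 39.9 to 86.2 CPM in the others, with overlap and too few UMIs to be tested.

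Ccr1, the receptor of Ccl6 and Ccl9, was 160, 134 and 212 CPM in myeloid cells of littermates and 209, 204 and 201 CPM in the libraries labelled IE-HuR-/-, with overlap (log2 fold change 0.31, edgeR adjusted p = 0.921). Cx3cr1 was 100.1, 172 and 100.9 CPM against 75.7, 104 and 113 CPM there, also with overlap (log2 fold change -0.31, edgeR adjusted p = 0.932). Both exceeded the enterocyte level, by 11.15 and 10.52 on the log2 scale. In the epithelium, Ackr4, a scavenger receptor of Ccl25, lay in tuft cells, with 63.8, 44.8 and 47.0 CPM against 85.6, 81.2 and 62.7 CPM and overlap between the labels (log2 fold change 0.52, edgeR adjusted p = 0.472), and exceeded the enterocyte level by 7.57 on the log2 scale (edgeR adjusted p = 3.34e-25). Ccr10 was 0 in T/NK and myeloid cells, Ccr3 was at most 0.324 CPM in T/NK cells and 0 in myeloid cells, and Ackr2 was at most 0.1998 CPM in T/NK cells.

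**Figure D4:**
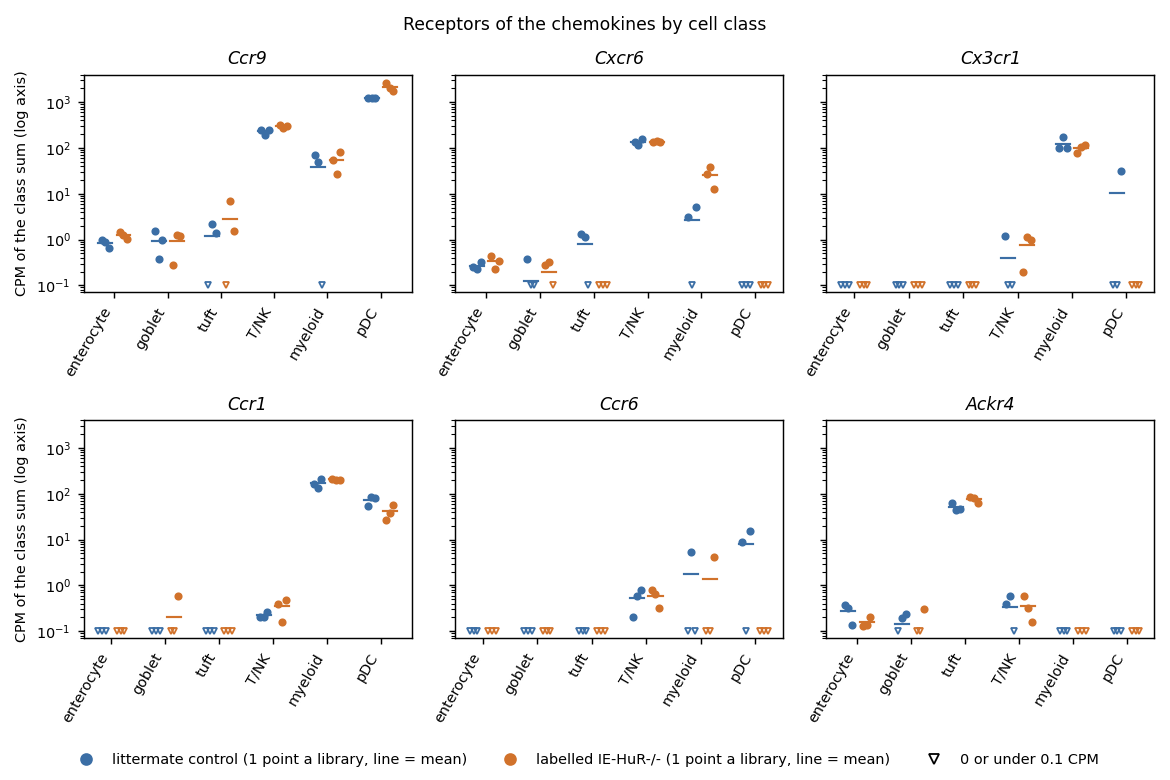
Level of the receptor genes Ccr9, Cxcr6, Cx3cr1, Ccr1, Ccr6 and Ackr4 (CPM on a log axis) in enterocytes, goblet, tuft, T/NK and myeloid cells and pDC. Each point is a library, coloured by label, and open triangles mark levels of 0 or under 0.1 CPM. Ccr9 lay highest in pDC and then in T/NK cells, Cxcr6 in T/NK cells, Ccr1 and Cx3cr1 among myeloid cells, and Ackr4 in tuft cells at 44.8 to 85.6 CPM.

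Other chemokine RNAs did not share one direction. Of 26 other chemokine genes whose symbol named 1 row, 9 could be tested in enterocytes, where 2 were higher and 1 was lower in the libraries labelled IE-HuR-/- (median log2 fold change 0.39). Of all RNAs there, 60.8% passed, 28.6% as higher and 32.2% as lower. Cxcl10, an interferon-induced ligand of Cxcr3, was 9.14, 7.97 and 8.12 CPM against 1.63, 0.963 and 1.28 CPM and fell by 2.55 on the log2 scale (edgeR adjusted p = 2.30e-22), without overlap. Ccl4 (log2 fold change 0.86, edgeR adjusted p = 0.00228) and Ccl17 (1.06, 0.0228) rose from at most 1.01 CPM. Ccl4 is an RNA of T/NK cells (372 to 558 CPM), and the 11 T/NK marker RNAs in enterocyte sums were 32.0 to 55.1 CPM in littermates and 64.1 to 69.6 CPM in the libraries labelled IE-HuR-/-. None of 3 other chemokines tested in goblet cells and none of 6 in T/NK cells passed with edgeR, where 26.3% and 4.84% of all RNAs did. In myeloid cells, where 0.290% of all RNAs passed, 1 of 8 did. Cxcl2, a neutrophil chemokine, was there at 6.25, 26.8 and 15.1 CPM against 290, 496 and 361 CPM (log2 fold change 4.68, SE 0.428, edgeR adjusted p = 0.000338) without overlap.

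Of 10 genes of shedding and retention, 3 of 8 tested were higher in enterocytes and none lower (median log2 fold change 0.39), where 28.6% of all RNAs were higher, so this share was close to the background. Adam10, a protease that sheds Cxcl16 and Cx3cl1, was 65.4 to 73.1 CPM against 72.9 to 76.5 CPM, with overlap, and rose by 0.29 with TMM scaling (edgeR adjusted p = 3.68e-07). Cdh1 (E-cadherin, an epithelial gate marker) rose by 0.35 (edgeR adjusted p = 4.75e-10) and Itgae, a T cell integrin chain that binds it, by 0.67 (0.00138), beside the T/NK marker levels just given. In T/NK cells 2 of 9 were higher, where 4.84% of all RNAs passed and 2.72% were higher. Itga4, the α4 chain of the gut homing integrin, was 41.3, 29.98 and 37.7 CPM against 68.8, 72.7 and 71.9 CPM (log2 fold change 0.95, SE 0.0983, edgeR adjusted p = 6.78e-06), and Itgb7, its partner chain, was 158, 163 and 205 CPM against 249, 236 and 248 CPM (log2 fold change 0.46, edgeR adjusted p = 0.00149). Neither overlapped between the labels.

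Across the 18 sums of enterocytes, goblet cells and T/NK cells in 6 libraries, the RNAs whose log2(CPM + 1) was most like that of each chemokine, of 10645 compared, were found by Pearson r. The sums of a library share its free RNA and depth, so these values are descriptions. Ccl6 was most like the goblet cell RNAs Zg16 (r = 0.998), Tff3 and Fcgbp, all of them gate markers. Ccl25 was most like Gna11 (0.996), Adh6a and Eci3, and Cx3cl1 most like Cgn (0.996), which encodes the tight junction protein cingulin, Cdhr5 and Mon1a. Cxcl16 was most like Ms4a12 (0.996), Smim31 and Tfcp2l1, and Ccl9 most like Tubb2b (0.987), Creb3l4 and Fgfr2. Ccl24 was most like Bche (0.980), Rdh16f2 and Cyp3a11, whereas Ccl20 was most like Cyp2c29 (0.968), S100g and Akr1c14, and Ccl28, with the lowest r, most like Gm43259 (0.932), Gm48302 and Slc4a11.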

How the data were processed

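The files deposited by the authors hold counts, that is, numbers of UMIs of every gene in every barcode, which are not normalized. Each barcode had at least 500 UMIs. Per the labels, Cell Ranger and Seurat were used with mm10, with no version. The labels name a 5′ kit. The methods name a 3′ kit and a version of Cell Ranger run on a human reference, whereas the tables list mouse genes.

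Barcodes with at least 200 genes were assigned to classes by the share of UMIs in marker lists (for example at least 0.3% epithelial and 5% goblet marker UMIs). No doublet caller was run, and barcodes that passed the gates of 2 or more secretory classes got no subclass. Secretory markers were capped in enterocytes, but enterocyte markers were not capped in secretory classes. UMIs were summed per library and class and compared with edgeR 4.0.16 in R 4.3.3 (TMM scaling, filterByExpr with a minimum count of 10 and total of 15, the quasi-likelihood test with robust estimates). The threshold was 0.05 on p adjusted over all RNAs tested after Benjamini and Hochberg. Libraries were the replicates, and p-values set a label difference against the spread between these libraries, estimated with information from all RNAs. Comparisons between classes or tiers and the interactions had the library as a block. Their p-values rest on how differences within a library varied between libraries. DESeq2 1.42.0, no TMM scaling, no count filter, a stricter cell filter, a stricter gate, thinning, the replicate number as a block and leaving out each library were alternatives. The fit was tested on simulated data. Named genes were the 8 chemokines, Elavl1, the receptors, up to 4 genes per comparison of the lists of other chemokines and of shedding and retention (those with the smallest adjusted p), and the 3 RNAs most like each chemokine by Pearson r. RNAs given for single barcodes were named after their values were seen. The members and lists were chosen with earlier results of these data known, and the gate thresholds, the tiers and the cells singled out were set after the data had been seen. Sequences came from RefSeq and GENCODE on GRCm38.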

Additional observations from a re-analysis of the deposited data

Results flagged for a closer look

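Between the tip and the low tier of enterocytes, the label difference of 5 chemokines differed by the interaction term of the edgeR fit, and these values were set apart for that reason. For Ccl25 the label difference in the tip tier minus that in the low tier was -0.74 on the log2 scale (adjusted p = 7.06e-14, -0.92 to -0.70 under 7 alternatives). For Cxcl16 it was 0.84 (adjusted p = 4.87e-07, 0.66 to 0.96), and for Cx3cl1 -0.39 (adjusted p = 0.000105, -0.57 to -0.31). For Ccl20 it was -2.25 (adjusted p = 0.0421) and no longer passed when littermate replicate 3 was left out (0.0861), nor without replicate 1 (0.0797) or 2 (0.0711) of the libraries labelled IE-HuR-/-. In the tip tier the Ccl20 sums on the IE-HuR-/- side held 54 UMIs in all. For Ccl24 it was 0.37 (adjusted p = 0.0460), which fell to 0.19 without TMM scaling (adjusted p = 0.347) and passed in 1 of the 6 fits that left out a library. The tiers were set after the data had been seen.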

How the results depend on the processing

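Of the fold changes of the chemokines recomputed under the alternatives, 932 kept their direction and their side of the threshold, 31 no longer passed, 27 newly passed and 41 changed sign. The label differences of Ccl20 and Ccl24 in enterocytes and goblet cells passed under every alternative run. The goblet count of 4 chemokines ranged from 2 to 4 with 1 library left out. In tuft cells the 2 chemokines became 1 with DESeq2 (Ccl24 was lost) and 0 to 3 with 1 library left out. With the stricter gate Ccl24 had too few UMIs to be tested and 1 was left, and when thinned neither could be tested. The 39 RNAs called in tuft cells became 173 without the count filter, 25 with the cell filter, 83 with the stricter gate, 124 with the replicate block and 10 to 120 with 1 library left out. In crypt progenitors the 14 RNAs became 35 without the count filter, 3 with the stricter gate, 9 when thinned, 52 with the replicate block and 6 to 33 with 1 library left out. In T/NK cells the 2 chemokines became 1 to 5 with 1 library left out (5 without littermate replicate 3, where Ccl25, Ccl6 and Cxcl16 also passed). With the stricter gate and when thinned, Ccl20 had too few UMIs to be tested and 1 was left. The 548 RNAs called in T/NK cells became 360 with DESeq2, 1021 without the count filter, 347 with the replicate block and 200 to 1337 with 1 library left out. In B/plasma cells, where no chemokine could be tested and 5.33% of RNAs passed, the 75 RNAs became 116 without TMM scaling, 193 without the count filter, 2 with the stricter gate, 34 when thinned, 126 with the replicate block and 42 to 116 with 1 library left out. In myeloid cells the 0 chemokines became 1 without the count filter and 0 to 2 with 1 library left out, and the 10 RNAs became 25 with DESeq2, 87 without the count filter, 6 with the stricter gate, 2 with the replicate block and 1 to 17 with 1 library left out. The interaction of goblet cells and enterocytes went from 0 chemokines to 1 without TMM scaling, 1 with the stricter gate and 0 to 1 with 1 library left out, and from 456 RNAs to 1093 with the stricter gate and 238 to 614 with 1 library left out, and that of the tiers from 5 chemokines to 3 to 4 with 1 library left out.

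Sign changes were found for values that did not pass, apart from Ccl25 of crypt progenitors against enterocytes (0.083 without TMM scaling). Ccl6 of T/NK cells against enterocytes was 0.87 without TMM scaling (adjusted p = 0.00166), 0.13 with the stricter gate and -0.23 to 0.024 with 1 library left out, and Ccl9 was 0.14 without TMM scaling. With the stricter gate Ccl6 against enterocytes was -0.48 in tuft, 1.97 in enteroendocrine and -0.40 in crypt progenitor cells. For the label difference in goblet cells, Ccl6 was -0.18 without TMM scaling and -0.011 with the stricter gate, and Cx3cl1 -0.072 without TMM scaling. Cx3cl1 in tuft cells was -0.052 with the cell filter, -0.40 with the stricter gate, -0.035 when thinned and -0.030 with the replicate block. In the interaction with class, the stricter gate gave -0.16 for Ccl20 and -0.0058 for Ccl6. With 1 library left out, the label difference of Ccl6 ranged from -0.37 to 0.037 in epithelial cells, -0.22 to 0.26 in enterocytes and -0.13 to 0.17 in goblet cells, that of Ccl9 in goblet cells from -0.28 to 0.22, and that of Cx3cl1 from -0.0034 to 0.25 in goblet and -0.31 to 0.35 in tuft cells. Against enterocytes, goblet Ccl28 ranged from -0.32 to 0.074, goblet Cx3cl1 from -0.071 to 0.035, tuft Ccl6 from -0.995 to 1.31 and crypt progenitor Ccl6 from -0.43 to 2.28. The interaction with class ranged from -0.22 to 1.23 for Ccl20, -0.27 to 0.37 for Ccl6, -0.90 to 0.34 for Ccl28 and -0.18 to 0.082 for Cx3cl1. The cause of these changes was not tested.

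Same-numbered libraries deviated together weakly (r = 0.136, -0.016 and 0.123), beside -0.149 to 0.035 for pairs with different numbers. The values of replicates 1 and 3 thus lay above those of every other pair. The numbers were not taken to pair the libraries, and the replicate block changed no call of a chemokine. The comparison of Paneth cells was not run, since 4 cells left libraries without any. Counts of tuft, crypt progenitor and myeloid cells limit what these classes can show.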

Other observations

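Ccr9, the receptor of Ccl25, was 1220, 1222 and 1228 CPM in pDC of littermate replicates 1 to 3 and 2593, 1986 and 1767 CPM in those labelled IE-HuR-/-. The groups did not overlap, and with 16 to 26 pDC per library the difference was not tested. In B/plasma cells Ccr9 had 2 UMIs in littermates and 41 UMIs in the others.

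A few barcodes without a class carried many chemokine UMIs, and they were singled out after their values had been seen. In IE-HuR-/- replicate 1, 1 barcode of 20856 UMIs held 204 of the 245 Ccl20 UMIs found in barcodes without a class of that label (83.3%). It held 122 Epcam UMIs, 15 UMIs of immune marker RNAs but no Ptprc UMI, 17 Marcksl1 UMIs and, of the list of M cell markers, 28 Anxa5 UMIs and no Spib, Tnfaip2 or Gp2 UMI. In littermate replicate 2, 1 barcode of 23401 UMIs held 86 Ccl20, 55 Ccl6 and 26 Ccl9 UMIs, and with them 208 Anxa5, 29 Tnfaip2 and 22 Spib UMIs, which are on that list, and no Gp2 UMI. It also held 1 Marcksl1 UMI and 14 UMIs of immune marker RNAs but no Ptprc UMI. In littermate replicate 3, 1 barcode of 256588 UMIs held 152 of the 221 Ccl9 UMIs of littermate barcodes without a class (68.8%) and 21185 UMIs of Lyz1, a Paneth cell marker.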
